A study of Mus musculus with 12 samples.

Results

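The genes described here are nuclear receptors and liver-enriched transcription factors, chosen by name from a list of 40. The list was made with earlier results of these data known, so counts of members beside shares of all genes are descriptions and no tests. Of these, 37 had a named probe set among the 15780 probe sets that carry 1 gene symbol. Nr1h2, Nr3c2 and Ncor1 were not analysed here. Of the 37, 32 passed the filter on low values (a mean over the 12 arrays of at least 5.57 on the log2 scale) and were tested among 9496 genes. The other 5, Prox1, Nr1i3, Esr1, Nr2f1 and Nr2f2, are given by their levels only.

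The data come from 12 Affymetrix Mouse430_2 arrays in 4 groups of 3, and all hepatocytes were from male C57BL/6J mice aged 8 weeks. Wild-type IP is RNA that an antibody against CNOT6L precipitated from wild-type primary hepatocytes. Knockout IP is the same precipitation from hepatocytes without Cnot6l, which the series text names as the negative control. Knockout input and wild-type input are the total RNA of the same cell preparations, each of which was divided between the 2 uses. The titles call the replicates biological, and nothing says that each came from a separate mouse, so the p-values measure the spread between these preparations. How the knockout was made is not given in the labels.

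CNOT6L is one of the catalytic subunits of CCR4-NOT, the complex that shortens poly(A) tails, and an mRNA that comes down with it may be bound by that complex directly or through partners. Hepatocyte identity rests on a network in which HNF4A, FOXA, C/EBP, ONECUT and GATA proteins bind each other's genes and those of plasma proteins and metabolic enzymes. Nuclear receptors add the response to bile acids, oxysterols, drugs, fatty acids and hormones, many of them as partners of RXR on repeats of the hexamer AGGTCA.

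A few of these transcripts stood apart in wild-type IP. Cebpd, Nr0b2, Nr6a1 and Foxa1 were higher on all 3 wild-type IP arrays than on each of the other 9 arrays, 4 of 32 tested members against 2.4% of all genes tested. No member lay below the other 9 arrays, as 0.348% of all genes did. In the planned limma fit, which takes the arrays as independent, no member was called in any of the 5 comparisons, although 24 genes of the whole array were called between the IPs. The replicate numbers pair the arrays, and with the number as a block Cebpd, Nr0b2, Nr6a1 and Foxa1 passed as higher in wild-type IP than in knockout IP. Cebpd, Nr0b2 and Nr6a1 also passed as higher in the wild-type IP against its own input. No member passed, in the planned fit or with the planned block, in the comparison that subtracts the negative control (specific enrichment), or between the knockout and wild-type inputs.

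**Figure D1:**
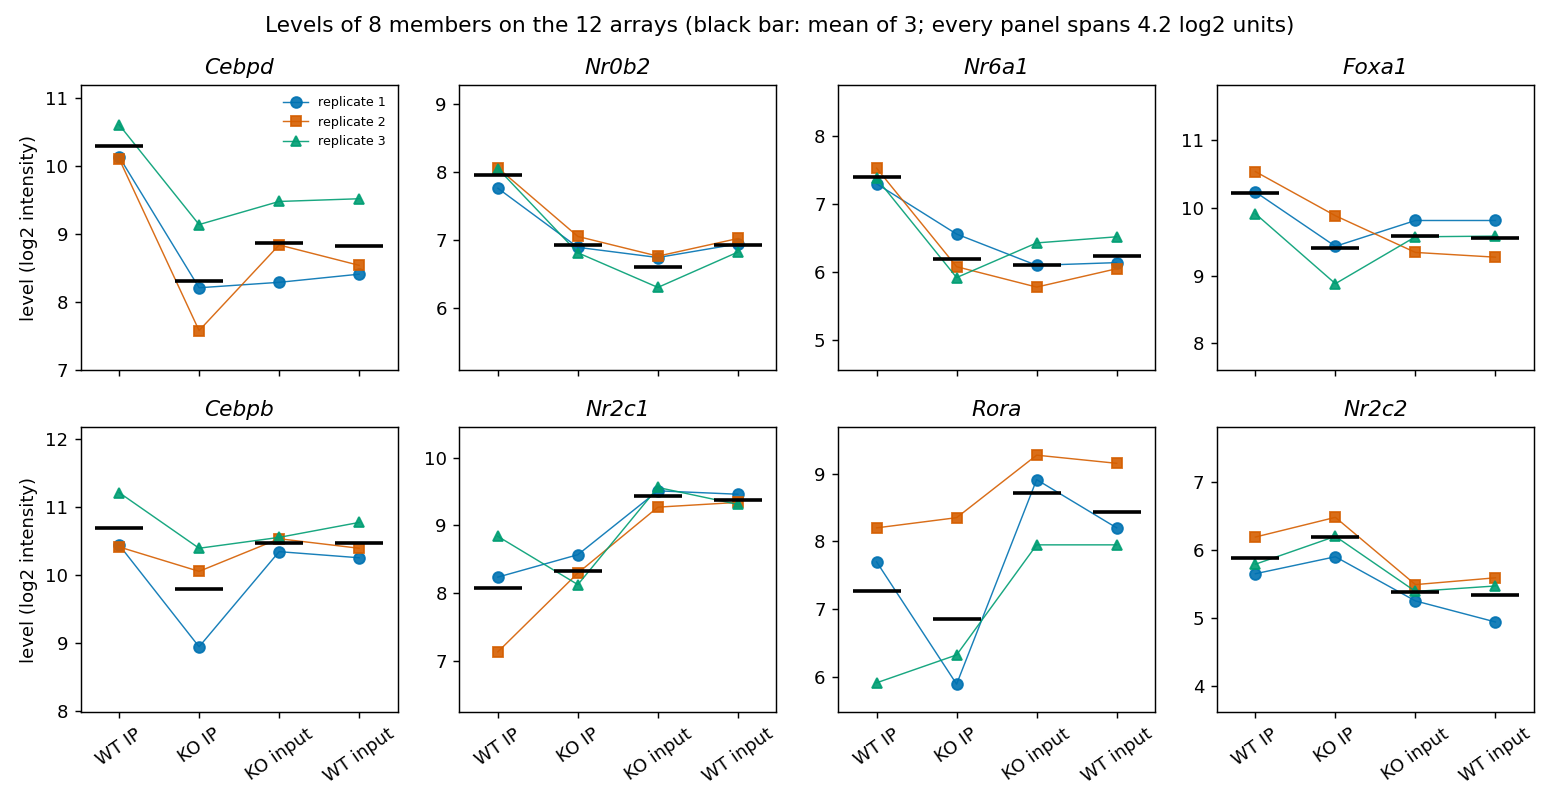
Levels (log2 intensity) of 8 members on the 12 arrays, with the groups along the horizontal axis, thin lines joining arrays of the same replicate number and black bars at the mean of 3. Cebpd, Nr0b2, Nr6a1 and Foxa1 have all 3 wild-type IP arrays above the other 9, Nr2c1 and Rora are lower in both IPs than in the inputs on average, and Nr2c2 is higher in both.

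The array medians lay between 6.31 and 6.45. Cnot6l itself gave 9.11, 10.65 and 8.85 in wild-type IP, 9.29, 10.63 and 9.46 in knockout IP, 9.12, 9.23 and 9.34 in knockout input, and 8.44, 9.51 and 9.11 in wild-type input. Its signal is therefore not lower in the arrays labelled knockout, and since the position of its probes relative to the deletion is not stated, it is no check of the labels, and the directions below rest on the labels. Of the hepatocyte markers, 12 of 12 on the array passed the filter, and their median sat at percentile 99.4 of all named genes. Of the markers of other liver cells, 2 of 10 for Kupffer cells, 5 of 10 for sinusoidal endothelium, 4 of 10 for stellate cells, 2 of 6 for cholangiocytes and 1 of 7 for lymphocytes passed. In RNA from many cells, fewer cells of a type and less RNA per cell cannot be told apart. The gap between the 3′ and 5′ Gapdh probe sets was 1.21 log2 units wider in the IPs than in their inputs (0.85 to 1.95 over 6 preparations), with means of 1.22 in wild type and 1.19 in knockout. The same gap for beta-actin was 1.56 units wider (1.38 to 1.91), with means of 1.63 in wild type and 1.49 in knockout. The poly-A control probe sets were 5.11 units higher in the IPs (4.55 to 5.90), with means of 4.98 in wild type and 5.23 in knockout. At the same number this shift differed by -0.27, -0.27 and -0.20, wild type minus knockout. The part of these shifts in the differences between IP and input, or between the genotypes, was not tested.

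C/EBP factors are leucine zipper proteins, of which C/EBPα maintains hepatocyte metabolism and C/EBPβ and C/EBPδ are induced in the acute phase response. Cebpd stood at 10.14, 10.11 and 10.61 in wild-type IP (replicates 1, 2 and 3, as in each list of 3 below), at 8.21, 7.58 and 9.14 in knockout IP, at 8.29, 8.84 and 9.48 in knockout input, and at 8.41, 8.54 and 9.52 in wild-type input. All 3 wild-type IP values exceeded the highest of the others, and the inputs of the 2 genotypes overlapped. Wild-type IP exceeded knockout IP by 1.98 ± 0.46 log2 units (SE, 3.93-fold), with same-number differences of 1.93, 2.53 and 1.47. The adjusted p from limma was 0.157 in the planned fit and 0.00601 with the replicate block. Over wild-type input the difference was 1.46 ± 0.46 (2.76-fold), with an adjusted p of 0.266 in the planned fit and 0.024 with the block. In the negative control Cebpd went the other way in 3 of 3 preparations, with knockout IP minus knockout input at -0.08, -1.26 and -0.34, a difference of -0.56 ± 0.46 that did not pass. Specific enrichment of Cebpd was therefore 2.02 ± 0.65 (95% interval 0.61 to 3.43), the largest among the members, at an adjusted p of 1 in the planned fit and 0.161 with the preparation as block. A block by the number shared by all 4 groups gave an adjusted p of 0.0499 from limma, just under the threshold.

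Cebpb was at 10.44, 10.41 and 11.21 in wild-type IP, 8.94, 10.05 and 10.39 in knockout IP, 10.34, 10.53 and 10.55 in knockout input, and 10.25, 10.39 and 10.77 in wild-type input. The IPs did not overlap, by 0.02 units, and wild-type IP overlapped both inputs. The difference between the IPs was 0.89 ± 0.38 (adjusted p = 0.839 by limma and 0.0789 with the block). Wild-type IP minus input was 0.22 ± 0.38 and knockout IP minus input -0.68 ± 0.38, neither passing. Over single arrays left out the difference between the IPs ran from 0.47, without the low knockout IP replicate 1, to 1.19. Cebpa had means of 9.28 ± 0.61 (SD, n = 3) in wild-type IP, 9.22 ± 0.50 in knockout IP, 9.82 ± 0.51 in knockout input and 9.76 ± 0.79 in wild-type input. IP minus input was negative in 3 of 3 preparations of both genotypes, at -0.48 ± 0.47 in wild type and -0.60 ± 0.47 in knockout, neither passing. The C/EBP members thus had log2 values of 2.02, 0.89 and 0.11 in specific enrichment for Cebpd, Cebpb and Cebpa.

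FOXA proteins are forkhead pioneer factors that open chromatin at liver genes. Foxa1 stood at 10.23, 10.53 and 9.91 in wild-type IP, 9.43, 9.88 and 8.88 in knockout IP, 9.81, 9.34 and 9.57 in knockout input, and 9.81, 9.27 and 9.58 in wild-type input. Wild-type IP was above the other arrays by at least 0.03 units, and the inputs of the same number differed by at most 0.08. Wild-type IP exceeded knockout IP by 0.83 ± 0.32 (1.77-fold, same-number differences 0.80, 0.65 and 1.02), with an adjusted p by limma of 0.734 in the planned fit, 0.0228 with the replicate block of IP arrays apart from inputs and 0.165 with 1 block per number over all 12 arrays. Against wild-type input it was higher in 3 of 3 preparations by 0.67 ± 0.32, which did not pass.

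Foxa2 had 10.26, 10.40 and 10.12 in wild-type IP, 9.79, 9.79 and 9.94 in knockout IP, 9.92, 10.40 and 10.00 in knockout input, and 10.04, 10.16 and 9.84 in wild-type input. The IPs did not overlap, with a difference of 0.42 ± 0.25 that did not pass (adjusted p = 1 by limma, 0.185 with the block), and both IPs reached into the range of the inputs. Foxa3 had a different pattern. Its IP minus input was negative in 3 of 3 preparations of each genotype (-0.76 ± 0.43 in wild type and -0.62 ± 0.43 in knockout), neither passing, and its specific enrichment was -0.14. The 3 paralogs therefore had specific enrichments of 0.85, 0.51 and -0.14, with intervals of -0.14 to 1.84 for Foxa1 and -0.26 to 1.28 for Foxa2.

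HNF4A is the orphan nuclear receptor at the centre of the hepatocyte network. Hnf4a had means of 8.06 ± 0.72 in wild-type IP, 8.19 ± 0.52 in knockout IP, 8.47 ± 0.86 in knockout input and 8.56 ± 0.94 in wild-type input (SD, n = 3). These groups overlapped in every comparison, and specific enrichment was -0.21 ± 0.80. ONECUT factors are homeodomain proteins active in liver and bile duct development. Onecut1 had 5.76, 6.68 and 6.32 in wild-type IP, 6.09, 6.63 and 4.63 in knockout IP, 5.44, 6.93 and 6.18 in knockout input, and 5.77, 6.31 and 6.35 in wild-type input. The IPs overlapped, and the difference between them of 0.47 ± 0.52 became -0.11 without knockout IP replicate 3. Onecut2 varied more between arrays, with SDs of 1.12 in wild-type IP and 1.21 in wild-type input and a specific enrichment of 0.40 ± 0.93.

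GATA4 and GATA6 are zinc finger factors of liver development that non-parenchymal liver cells also express. Gata6 had 6.42, 7.49 and 7.15 in wild-type IP, 6.99, 6.93 and 7.03 in knockout IP, 7.33, 7.94 and 7.47 in knockout input, and 7.37, 7.97 and 7.56 in wild-type input. Both IPs were lower than their inputs in 3 of 3 preparations, by 0.61 ± 0.32 in wild type and 0.60 ± 0.32 in knockout, without passing. Gata4 had values of 0.31 and 0.09 in the same comparisons. Beside them, the mean level of 10 sinusoidal endothelial markers ran from 5.28 to 6.05 in wild-type IP, 5.17 to 5.96 in knockout IP, 5.24 to 5.87 in knockout input and 5.18 to 6.14 in wild-type input. Prox1, a homeobox factor of hepatoblasts, averaged 5.48 over the 12 arrays, below the filter.

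Nr0b2 encodes SHP, a receptor without a DNA-binding domain that represses other receptors and, in liver, bile acid synthesis. It stood at 7.76, 8.06 and 8.05 in wild-type IP, 6.89, 7.05 and 6.81 in knockout IP, 6.74, 6.76 and 6.30 in knockout input, and 6.94, 7.02 and 6.82 in wild-type input. Wild-type IP was above the other 9 arrays by at least 0.71 units, the widest such gap after that of Nr6a1. Wild-type IP exceeded knockout IP by 1.04 ± 0.25 (2.05-fold, adjusted p by limma 0.175 in the planned fit and 0.0135 with the block) and wild-type input by 1.03 ± 0.25 (2.04-fold, 0.16 and 0.0258). In the negative control, knockout IP minus input had the same sign, with 0.15, 0.30 and 0.51, a difference of 0.32 ± 0.25 that did not pass. Specific enrichment of Nr0b2 was 0.71 ± 0.35 (interval -0.06 to 1.48), with same-number differences of 0.67, 0.73 and 0.72. The inputs did not overlap either: knockout input was lower by 0.33 ± 0.25 (adjusted p = 1), in 3 of 3 pairs.

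For the other 6 tested lipid and drug sensors, wild-type IP minus knockout IP was 0.01 or less. Nr1i2 encodes PXR, the receptor for drugs and other foreign compounds. Its levels were 6.85, 6.32 and 5.40 in wild-type IP, 7.21, 5.77 and 6.21 in knockout IP, 7.46, 8.01 and 6.11 in knockout input, and 7.66, 7.95 and 6.89 in wild-type input. In wild type the IP lay below the input without overlap, by 1.31 ± 0.56 (adjusted p by limma 0.433 in the planned fit, 0.0891 with the preparation as block and 0.0496 with the shared number), and in knockout by 0.80 ± 0.56 with overlap. Nr1h3, which encodes the oxysterol receptor LXRα, had IP minus input at -0.50 in wild type and -0.45 in knockout, without passing. Nr1h4, which encodes the bile acid receptor FXR, had values of 0.16 and 0.03 in these comparisons, and Pparg, which encodes a fatty acid receptor, had -0.05 and 0.13.

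Ppard, which encodes a widely expressed fatty acid receptor, had 7.25, 6.62 and 6.39 in wild-type IP, 7.28, 6.18 and 6.78 in knockout IP, 6.42, 6.18 and 6.10 in knockout input, and 6.58, 6.23 and 6.14 in wild-type input. It was higher in the IP in 3 of 3 preparations of both genotypes, by 0.44 ± 0.34 and 0.51 ± 0.34, without passing. Nr5a2 encodes LRH-1, an activator of Nr0b2 and of bile acid synthesis genes. Its values spread most among the members in wild-type IP, with 7.67 ± 2.05 (SD, n = 3) there, 8.50 ± 0.91 in knockout IP, 8.83 ± 0.64 in knockout input and 8.60 ± 0.84 in wild-type input. Wild-type IP replicate 1 was at 5.32 and replicates 2 and 3 at 9.11 and 8.58, so that its 95% intervals were also the widest among the members. Nr1i3, which encodes CAR, a partner of PXR in drug metabolism, averaged 4.41 and was not tested.

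RXR proteins are the shared partners of these receptors. Rxra had means of 8.19 ± 0.18 in wild-type IP, 7.96 ± 0.62 in knockout IP, 8.22 ± 0.51 in knockout input and 8.37 ± 0.50 in wild-type input (SD, n = 3), and Rxrb had 9.70 ± 0.93 in wild-type IP, 9.81 ± 0.82 in knockout IP, 9.86 ± 0.27 in knockout input and 9.84 ± 0.28 in wild-type input. Specific enrichments of 0.08 ± 0.55 and -0.09 ± 0.69 did not pass. Rxrg, the isoform gene best known from muscle and nervous tissue, had 6.03, 6.42 and 6.88 in wild-type IP, 6.80, 7.62 and 6.31 in knockout IP, 6.31, 6.37 and 6.05 in knockout input, and 6.28, 5.74 and 6.09 in wild-type input. Its IP values overlapped between the genotypes, and knockout IP was higher than knockout input in 3 of 3 preparations by 0.67 ± 0.36, without passing.

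Among the hormone receptors, Nr3c1 encodes the glucocorticoid receptor. It stood at 6.94, 7.46 and 6.48 in wild-type IP, 7.17, 7.34 and 6.59 in knockout IP, 7.31, 7.21 and 6.85 in knockout input, and 6.81, 7.21 and 6.66 in wild-type input. The groups overlapped in every comparison, and specific enrichment was 0.16 ± 0.47. Thrb encodes the main thyroid hormone receptor of liver. It was dim, with 5.29, 5.69 and 5.97 in wild-type IP, 6.66, 5.90 and 6.14 in knockout IP, 5.33, 5.65 and 5.31 in knockout input, and 5.28, 5.50 and 5.62 in wild-type input. All 3 knockout IP values lay above the inputs, by 0.80 ± 0.29 over knockout input (adjusted p by limma 0.355 and 0.0787 with the block), and its specific enrichment of -0.62 ± 0.42 was the lowest among the members. The input means of Thrb, 5.43 in knockout and 5.47 in wild type, lay below the filter value of 5.57. It too was tested only because of its IP levels, so these differences are not independent of the filter. Thra had -0.23 and -0.31 for IP minus input in wild type and knockout, and Esr1, at a mean of 4.07, was not tested.

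The REV-ERB repressors and the ROR activators compete for the same elements in clock genes. Rora had 7.70, 8.20 and 5.92 in wild-type IP, 5.90, 8.35 and 6.33 in knockout IP, 8.91, 9.27 and 7.95 in knockout input, and 8.20, 9.15 and 7.95 in wild-type input. All 6 preparations had less signal in the IP. In knockout it was lower by 1.85 ± 0.71 (3.61-fold; adjusted p by limma 0.362 in the planned fit and 0.0399 with the block), with same-number values of -3.01, -0.92 and -1.62. Wild type had -1.16 ± 0.71, which did not pass, and the difference between the genotypes was 0.69 ± 1. Nr1d2 gave 8.05, 8.37 and 8.21 in wild-type IP, 8.29, 8.24 and 8.26 in knockout IP, 8.59, 7.71 and 8.00 in knockout input, and 8.33, 7.54 and 7.91 in wild-type input. Its groups overlapped, with 0.28 and 0.17 for IP minus input in wild type and knockout. Nr1d1, whose gene overlaps Thra in the RefSeq table, had 0.05 and -0.07.

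Among the orphan receptors, Nr6a1 encodes GCNF, a repressor of pluripotency genes in mouse embryos. It stood at 7.30, 7.53 and 7.38 in wild-type IP, 6.56, 6.08 and 5.92 in knockout IP, 6.10, 5.78 and 6.43 in knockout input, and 6.14, 6.05 and 6.52 in wild-type input. Wild-type IP was at least 0.74 units above the other 9 arrays, which overlapped each other. Wild-type IP exceeded knockout IP by 1.21 ± 0.29 (2.32-fold, adjusted p by limma 0.165 in the planned fit and 0.0154 with the block) and wild-type input by 1.17 ± 0.29 (2.24-fold, 0.165 and 0.033). Knockout IP minus input was 0.09 ± 0.29, and specific enrichment was 1.08 ± 0.40 (interval 0.20 to 1.96) with an adjusted p of 1 in the planned fit and 0.518 with the block.

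Nr2c1 and Nr2c2 encode TR2 and TR4, a pair of related repressors that can bind DNA together. Nr2c1 had 8.24, 7.14 and 8.84 in wild-type IP, 8.57, 8.30 and 8.13 in knockout IP, 9.51, 9.27 and 9.56 in knockout input, and 9.46, 9.34 and 9.31 in wild-type input. All 6 inputs lay above all 6 IP values. Wild-type IP was lower than its input by 1.29 ± 0.38 (2.45-fold; adjusted p by limma 0.24 in the planned fit and 0.0438 with the block), and knockout IP by 1.11 ± 0.38 (2.17-fold; 0.321 and 0.0655, and 0.0452 with the shared number). Nr2c2 lay on the other side, with 5.65, 6.19 and 5.79 in wild-type IP, 5.90, 6.48 and 6.2 in knockout IP, 5.25, 5.49 and 5.39 in knockout input, and 4.94, 5.59 and 5.47 in wild-type input. All 6 IP values were above all 6 inputs. The input means of Nr2c2, 5.38 in knockout and 5.33 in wild type, lay below the filter value of 5.57. It was tested only because of its IP levels, so its differences from input are not independent of the filter. Knockout IP was higher by 0.82 ± 0.29 (1.76-fold; adjusted p by limma 0.341 in the planned fit and 0.048 with the block), and wild-type IP by 0.54 ± 0.29, which did not pass. Specific enrichment was -0.18 ± 0.53 for Nr2c1 and -0.27 ± 0.41 for Nr2c2.

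Esrra encodes ERRα, a receptor that drives mitochondrial genes. It had 8.66, 8.26 and 8.92 in wild-type IP, 9.37, 8.71 and 8.87 in knockout IP, 9.56, 9.33 and 8.82 in knockout input, and 9.28, 9.43 and 8.86 in wild-type input. The groups overlapped, with a specific enrichment of -0.32 ± 0.45. Nr2f6 had values of -0.06 and 0.06 for IP minus input in wild type and knockout. Nr2f1 and Nr2f2, COUP-TF genes that mark endothelial and stromal cells more than hepatocytes, averaged 3.23 and 4.88 and were not tested. Nr2f1 was higher in the IP in 3 of 3 preparations of each genotype, by 0.39 in wild type and 0.85 in knockout. All named genes below the filter had medians of 0.38 and 0.57 in these comparisons.

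Level went with the sign of IP minus input over all genes. Over the 6284 named genes below the filter, its median was 0.38 in wild type and 0.57 in knockout. The tested genes were divided by mean level into 5 bands of equal size, and band 1, the dimmest (5.57 to 6.56), had medians of 0.15 and 0.12. Band 5, the brightest (9.66 to 14.69), had -0.29 and -0.28. Nr2c2, Thrb, Rxrg, Ppard, Gata4 and Nr6a1, whose means were higher in both IPs than in their own inputs, belong to band 1. Of these, Nr2c2 and Thrb passed the filter only through their IP levels. Band 1 also holds Thra, lower in both IPs (-0.23 in wild type and -0.31 in knockout), and Onecut1 and Nr1d1, whose signs differed between the genotypes. Outside band 1, Onecut2, Nr1d2 and Nr1h4 of band 3 were higher in both IPs, as was Nr0b2. Nr0b2 belongs to band 2, with medians of -0.08 and -0.20, Cebpd to band 4, with -0.19 and -0.28, and Foxa1 to band 5. For wild-type IP minus knockout IP, the medians of bands 1, 2, 4 and 5 were 0.04, 0.11, 0.04 and -0.06.

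**Figure D2:**
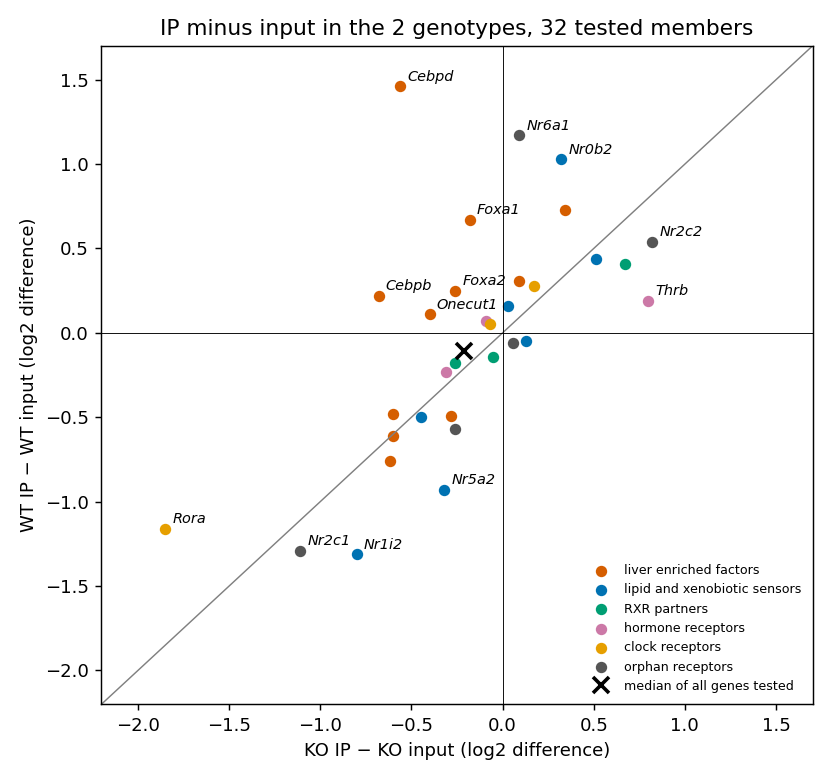
IP minus input (log2 difference) in wild type on the vertical axis against knockout on the horizontal axis, 1 point per tested member coloured by role. The grey line marks equal values and the cross the medians of all genes tested (-0.11 and -0.21). Cebpd, Nr6a1, Nr0b2, Foxa1 and Cebpb lie above the line, and Nr2c1, Nr1i2 and Rora are low in both genotypes.

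The counts of members called stand beside the shares of all genes tested. Between the IPs, 4 of 32 members passed as higher in wild type with the replicate block, where 3.58% of genes did, and 0 as lower, where 0.421% did. In the planned fit 0 members passed, against 0.253% of genes as higher and 0% as lower. At an unadjusted p below 0.05 that fit had 5 members higher, where 4.78% of genes were, and 0 lower, where 0.611% were. The shared number called 3 members higher (2.33% of genes) and 0 lower (0.126%). The groups did not overlap for 6 members that were higher (5.44% of genes) and for 0 that were lower (1.35%). Signs were nearly even, with 17 of 32 above 0 (54.1% of genes) and 15 below (45.9%), and the median was 0.01 for the members and 0.04 for all genes. Leaving out number 1, 2 or 3 with the block kept 1, 0 and 1 of the 4 calls (Nr6a1 without number 1, Cebpd without number 3). Those fits have 2 residual degrees of freedom and called 168, 0 and 41 genes in all. In them the differences of Cebpd (1.7 to 2.23), Nr6a1 (1.09 to 1.45), Nr0b2 (0.93 to 1.12) and Foxa1 (0.73 to 0.91) kept their sign.

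For wild-type IP against input, 3 members passed as higher and 1 as lower with the block, against 2.41% and 4.61% of genes. The planned fit called 0, against 0.105% and 0%, and at an unadjusted p below 0.05 it had 3 higher (4.58% of genes) and 2 lower (6.03%). The shared number called 3 higher (3.81%) and 2 lower (7.86%). The groups did not overlap for 5 higher (7.72%) and 2 lower (7.59%), and 17 members were above 0 (41.6%) and 15 below (58.4%). The median was 0.06 for the members and -0.11 for all genes. With quantile normalization the block kept Cebpd, Nr0b2 and Nr6a1 and no longer called Nr2c1 (-1.15, adjusted p = 0.0849 by limma). Without number 1 the block called 229 genes in all but none of the 4 members, so the 4 calls did not hold there. Without number 2 or 3 it called 0 genes in all, so those fits say little about the calls. With a number left out, the values ran for Cebpd between 1.33 and 1.65 and for Nr0b2 between 0.93 and 1.13. Those of Nr6a1 ran between 1.01 and 1.32 and those of Nr2c1 between -1.7 and -0.84.

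For knockout IP against input, 1 member passed as higher (Nr2c2) and 1 as lower (Rora) with the block, against 0.727% and 5.28% of genes. Nr2c2 had reached the filter only through its IP levels. The planned fit called 0, as for all genes (0% in each direction), and at an unadjusted p below 0.05 had 2 members above (2.97%) and 2 below (8%). The shared number called 1 higher (1.85%) and 2 lower (9.45%). The groups did not overlap for 3 higher (5.31%) and 2 lower (10.1%), and 12 members were above 0 (34.1%) and 20 below (65.9%). The median was -0.22 for the members and -0.21 for all genes, and quantile normalization moved the median of all genes to -0.04. With it the block no longer called Nr2c2 (0.61, adjusted p = 0.16 by limma) or Rora (-1.77, adjusted p = 0.101). Without number 1, 2 or 3 it called 41, 0 and 0 genes in all and neither member, with values between 0.73 and 0.9 for Nr2c2 and between -2.31 and -1.27 for Rora.

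Specific enrichment called 0 members in the planned fit and with the block, where 0.0105% and 0.0211% of genes were called higher and 0% lower in both. At an unadjusted p below 0.05 the planned fit had 2 members higher (1.83% of genes) and 0 lower (0.147%), and the block 4 (5.54%) and 0 (0.621%). The shared number called 1 higher (0.284%) and 0 lower (0%). The members had a median of 0.08 and all genes 0.05, with 17 members above 0 (55.8% of genes) and 15 below (44.2%). By role, the liver-enriched factors had 8 of 11 values above 0 and a median of 0.40, the lipid and drug sensors 2 of 7 and -0.07, the RXR genes 1 of 3 and -0.09, the hormone receptors 2 of 3 and 0.09, the clock receptors 3 of 3 and 0.12, and the orphan receptors 1 of 5 and -0.18. Over single numbers, the median of the liver-enriched factors was 0 at number 1, 0.50 at number 2 and 0.49 at number 3. The 95% intervals of single members reached 0.77 (Foxa2) to 2.65 (Nr5a2) log2 units to each side.

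**Figure D3:**
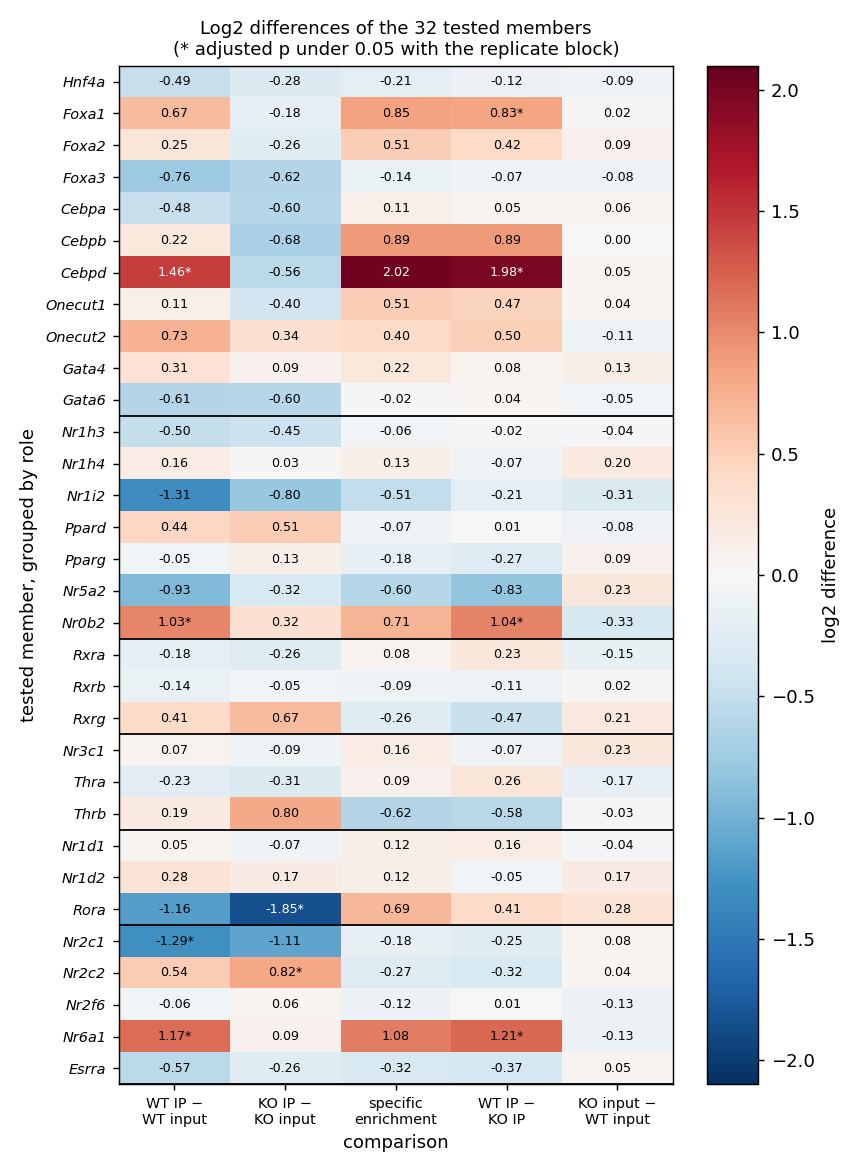
Log2 differences of the 32 tested members (vertical axis, with lines between the roles) in the 5 comparisons (horizontal axis), printed in each cell and coloured from blue (lower) to red (higher). Asterisks mark an adjusted p under 0.05 with the replicate block. The largest values are those of Cebpd in specific enrichment (2.02) and between the IPs (1.98), and the column of the inputs stays between -0.33 and 0.28.

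Between the inputs, knockout minus wild type, the members ran from -0.33 (Nr0b2) to 0.28 (Rora), with a median of 0.02 as for all genes, and 0 passed without a block, with it or with the shared number, as for all genes (0% in each direction). No member had an unadjusted p below 0.05 in the planned limma fit (0.0316% of genes higher and 0.0211% lower) or with the block (0.727% and 0.569%). Of the members 18 were above 0 (53.9% of genes) and 14 below (46.1%). The groups did not overlap for 1 member, Nr0b2, lower in knockout (0.958% of genes), and for 0 that were higher (0.663%). The intervals reached 0.54 (Foxa2) to 1.88 (Nr5a2) to each side, with a median of 0.85. Differences within those bounds could not be told from 0 with 3 arrays a group. The intervals are not adjusted for the number of genes tested, so larger differences could also go uncalled. Between the IPs, for example, Nr0b2 had an interval of 0.49 to 1.58 but an adjusted p of 0.175 by limma in the planned fit.

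Replicate number moved the inputs more than genotype did. The mean of the 2 inputs of a number ranged over 0.60 log2 units across the 3 numbers for the median member, and over 0.75 for the median gene tested, while the absolute difference between knockout and wild-type input at the same number had medians of 0.17 and 0.18. Hnf4a is an example, with 9.23, 8.64 and 7.53 in knockout input and 9.63, 8.17 and 7.87 in wild-type input. Pparg had the widest range between numbers, 1.78, with 6.69, 7.36 and 5.83 in knockout input and 6.79, 7.43 and 5.39 in wild-type input. Among the 32 members 15 were lowest at number 3, and among the 9496 genes 4537 were. Nr1h3, Nr1h4, Nr1i2, Rxra and Hnf4a were among those lowest at number 3, with number means of 7.26, 7.43, 6.50, 7.71 and 7.70. Highest at number 3 were 6 of the 32 members and 3180 of the 9496 genes. These members were Cebpb and Cebpd, at 10.66 and 9.50, and Onecut2, Nr5a2, Thra and Nr6a1. The mean level of the 12 hepatocyte markers was likewise lowest at number 3, with 11.90, 12.27 and 10.80 in knockout input and 11.68, 12.52 and 10.85 in wild-type input. Single markers differed: at number 3 Arg1 was lowest (5.38 in knockout input and 4.37 in wild-type input) and Fgb highest (14.22 and 14.13). Of the stellate markers, Col3a1 had 4.68, 4.86 and 9.98 in knockout input and 5.50, 5.73 and 9.34 in wild-type input, whereas Reln was lowest at number 3 (6.28 and 6.21). The part of these marker differences in the members' spread was not tested.

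**Figure D4:**
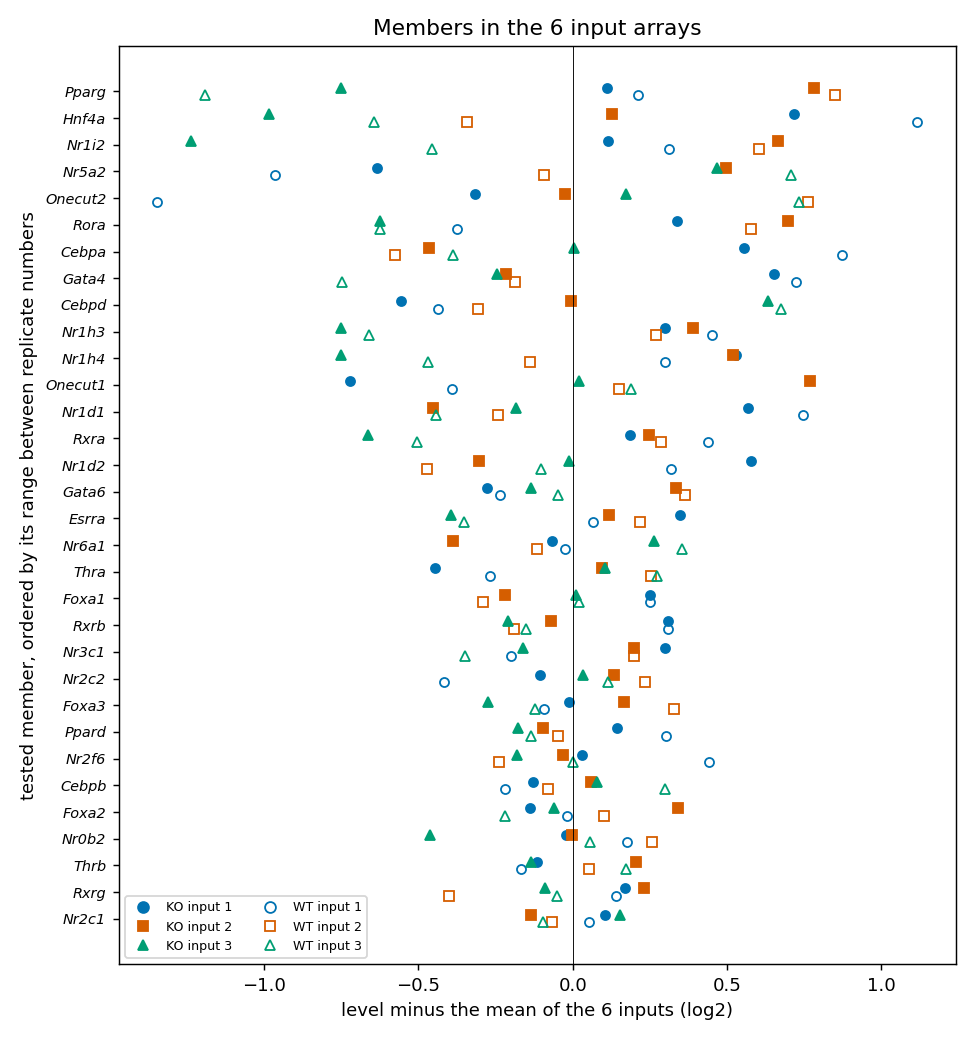
Levels of the 32 tested members in the 6 inputs, each minus the mean of the 6 (log2, horizontal axis), with members ordered down the vertical axis by their range between replicate numbers. Filled symbols are knockout and open symbols wild type, and colour and shape give the number. Pparg, Hnf4a and Nr1i2 have the widest ranges, and symbols of the same number lie close together for most members.

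Genes that work with the members were counted from lists. Of 5 tested other nuclear receptors, 0 passed in the planned fit, and 1 was called lower in knockout IP against its input with the block (5.28% of all genes). This was Rara, which encodes a retinoic acid receptor (-1.09, adjusted p = 0.0365), with 6.03, 5.77 and 5.35 in knockout IP and 6.90, 6.91 and 6.62 in knockout input. Of 15 other liver transcription factors, 11 had values above 0 between the IPs (54.1% of all genes), with a median of 0.22 (0.04 for all genes). Among them 1 passed as higher with the block (3.58% of all genes), Bhlhe40, a clock-related repressor (0.89, adjusted p = 0.0208). It stood at 11.96, 11.96 and 11.93 in wild-type IP and 11.16, 11.18 and 10.83 in knockout IP, without overlap. In wild type against input the block called 1 higher and 1 lower (2.41% and 4.61% of all genes). Srebf1, which encodes an activator of fatty acid synthesis, was higher (1, adjusted p = 0.0388), and Atf5, a stress-response factor, was lower (-2.37, adjusted p = 0.0372). In knockout Atf5 had means of 9.37 in IP and 11.40 in input, without passing (adjusted p = 0.0552 with the block). Of 20 coregulators, 1 was called with the block, as higher in the wild-type IP against its input (2.41% of all genes). This was Ep300, which encodes the acetyltransferase p300 (1.22, adjusted p = 0.0166), and its difference between the IPs of 0.60 did not pass.

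Of 37 tested genes that the receptors are known to regulate, 25 had values above 0 between the IPs (54.1% of all genes), with a median of 0.16 (0.04 for all genes), and 3 passed as higher with the block (3.58% of all genes). Pdk4, which encodes a kinase that spares glucose in fasting, was at 7.43, 7.56 and 7.65 in wild-type IP and 6.17, 5.67 and 5.79 in knockout IP (1.67, adjusted p = 0.0133). Per1, a clock gene that glucocorticoids induce, was at 8.89, 10.02 and 9.88 in wild-type IP and 7.46, 7.87 and 8.93 in knockout IP (1.51, adjusted p = 0.017), and Slc51b, a bile acid exporter gene, differed by 0.65 (adjusted p = 0.0454). Against input, the block called 1 target higher and 2 lower in wild type (2.41% and 4.61% of all genes), and 0 higher and 3 lower in knockout (0.727% and 5.28%). Pdk4 was the higher one in wild type (1.56, adjusted p = 0.0403). In both genotypes the IP was lower than the input for the glucocorticoid targets Fkbp5 (-0.92 in wild type and -0.91 in knockout) and Tsc22d3 (-1.06 and -1.21). Thrsp, a thyroid hormone target, was called lower in knockout IP against its input (-0.96, adjusted p = 0.0392). None of these genes passed in the planned fit or was called between the inputs or in specific enrichment. The comparisons that share wild-type IP arrays are not independent of each other.

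Of the 4 members whose wild-type IP arrays stood apart, Nr0b2, Foxa1 and Nr6a1 have promoter windows in RefSeq's GRCm38.p6 table. The arrays measured RNA and hold no data on binding. These genes were picked because their wild-type IP arrays lay above the other 9, for Foxa1 by only 0.03 units, so their shared direction is the rule of choice and no result. Of the 3, 2 encode receptors. Each line gives 250 bases upstream of a transcription start, 5′ to 3′ on the gene's strand, with capitals for matches on either strand to AGGTCA (receptor hexamer), TCAAGG (the core of sites bound by single receptors such as LRH-1, searched after the sequences were read), TGTTTAC (forkhead) or TTNNGCAA (C/EBP).
Nr0b2, chr4:133553126-133553375, plus strand: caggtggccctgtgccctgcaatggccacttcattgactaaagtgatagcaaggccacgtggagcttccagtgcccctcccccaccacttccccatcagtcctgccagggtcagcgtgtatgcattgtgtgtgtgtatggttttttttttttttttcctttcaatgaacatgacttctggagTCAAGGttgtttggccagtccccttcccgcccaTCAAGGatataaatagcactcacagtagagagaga
Foxa1, chr12:57546112-57546361, minus strand: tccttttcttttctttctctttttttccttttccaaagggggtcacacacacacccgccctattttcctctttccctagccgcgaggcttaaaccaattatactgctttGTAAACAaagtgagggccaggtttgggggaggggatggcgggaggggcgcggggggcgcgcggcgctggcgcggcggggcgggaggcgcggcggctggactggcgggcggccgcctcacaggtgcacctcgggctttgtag
Nr6a1, chr2:38784516-38784765, minus strand: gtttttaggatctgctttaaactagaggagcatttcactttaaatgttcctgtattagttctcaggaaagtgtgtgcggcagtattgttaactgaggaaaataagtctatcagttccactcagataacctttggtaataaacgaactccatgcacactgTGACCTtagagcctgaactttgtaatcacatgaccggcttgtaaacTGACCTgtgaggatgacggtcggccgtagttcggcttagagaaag

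The Nr0b2 window holds TCAAGG at 68 and 35 bases before the start, as 12.5% of the 32851 windows of this length hold it at least once. The Foxa1 window holds the forkhead letters as GTAAACA, 141 bases before the start (3.17% of windows). The printed window of Nr6a1 holds the receptor hexamer as TGACCT at 91 and 45 bases before the start (14% of windows). The other of its 2 windows, chr2:38926462-38926711, adjoins the 5′ end of the gene's RefSeq span and holds none of the 4 motifs. The printed windows of Nr6a1 and Foxa1 lie inside the spans of their genes (chr2:38723369-38926461 and chr12:57540628-57548029), so they belong to internal starts. None of the 4 windows of these genes has the C/EBP letters (9.56% of windows). These matches describe the letters only.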

How the data were processed

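The values were deposited by the authors as log2 intensities (the log2 scale is read from their range), 1 per probe set and array. How they were background-corrected, normalized and summarised is stated in none of the sources used here. Of 16539 probe sets, 64 were controls, 15780 carried 1 gene symbol, 0 several, and 695 were unnamed here. Symbols came from the platform annotation, and 15752 matched the RefSeq table of GRCm38.p6, with 0 changed. Genes were tested if their mean over 12 arrays reached the 40th percentile. limma 3.58.1 in R 4.3.3 fitted 4 group means (8 residual degrees of freedom) with empirical Bayes moderation. Adjusted p-values are two-sided, by Benjamini-Hochberg over 9496 genes, and called under 0.05. The code was tested on simulated data.

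Replicate numbers were checked for pairing: after removal of group means, 18 array pairs that share a number across groups correlated at 0.453 to 0.936, and 48 pairs that do not at -0.748 to 0.0685. The numbers thus pair the samples, per the values between genotypes and per the series text between IP and input. The replicate block took the preparation for IP against input and for specific enrichment, and the number within each fraction between genotypes (4 residual degrees of freedom). A block by the number shared by all 4 groups has 6.

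Members, lists and roles were chosen with earlier results of these data known. Every member on the array is accounted for, and members are given with every array if called in the planned or block fit or among the 3 smallest p per direction in a comparison, or without overlap between genotypes by 0.5 or more. Genes of the other lists are named if called, up to 4 per list and comparison. Arrays have no read depth, and their number limits the precision. Figures used Python 3.11.15 and matplotlib 3.10.9.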

Additional observations from a re-analysis of the deposited data

Results flagged for a closer look

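Cebpd, Cebpb and Foxa2 had IP minus input above 0 in 3 of 3 wild-type preparations and below 0 in 3 of 3 knockout preparations. Such opposite signs occurred in 3 of 32 tested members and in 1.84% of all genes tested, a description only, since the members were chosen with earlier results of these data known. The difference between the genotypes (specific enrichment) was 2.02 for Cebpd, 0.89 for Cebpb and 0.51 for Foxa2, each with an adjusted p of 1 by limma in the planned fit and of 0.161, 0.741 and 1 with the replicate block. For Cebpb the wild-type differences were 0.19, 0.02 and 0.44 and the knockout differences -1.39, -0.48 and -0.16. Foxa2 had wild-type differences of 0.23, 0.24 and 0.28 and knockout differences of -0.13, -0.61 and -0.05.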

How the results depend on the processing

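With 3 arrays a group, the planned limma fit called 0 members in each comparison, and so did each fit with no filter, a stricter filter, quantile normalization, moderation with trend, only the compared arrays, or 1 array left out. The replicate block called 4 members in wild-type IP against input, 2 in knockout IP against input and 4 between the IPs, and the block by shared number 5, 3 and 3, with 1 in specific enrichment. With quantile normalization as well, a setting added after the data were seen, the block called 3 (not Nr2c1), 0 and 4. With a number left out and the block, between 0 and 1 members were called between the IPs and 0 elsewhere, in fits with 2 residual degrees of freedom that called 0 genes in all without number 2. The block changed no other call of the members. The cause of these changes was not tested. The members' median in wild-type IP against input was -0.18 with the stricter filter, which tests fewer genes, and -0.07 to 0.13 with arrays left out. In knockout it was 0.02 with quantile normalization, with and without the block, -0.24 to -0.03 with single arrays left out, and as low as -0.26 with a number left out. In specific enrichment it ran from -0.14 to 0.21. Differences that changed sign with arrays left out passed in no fit: Onecut1 between the IPs (-0.11 to 0.89, and -0.14 without number 3 with the block), and, between the inputs, Nr1d2 (-0.07 to 0.37), Nr6a1 (-0.3 to 0.03), Nr1i2 (-0.72 to 0.24) and Rxrg (-0.01 without number 2 with the block).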
